A study of Homo sapiens with 6 samples.

Results

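ER-associated degradation (ERAD) is the route by which the endoplasmic reticulum (ER) disposes of misfolded glycoproteins. The genes of this route examined here were 10: the mannose-trimming family EDEM1, EDEM2 and EDEM3, the ER mannosidase MAN1B1, the lectin OS9, the adaptor SEL1L, the ubiquitin ligase SYVN1, the channel proteins DERL1 and DERL2, and the scaffold HERPUD1. They were chosen by function, with the log2 change of EDEM3 in this same comparison already known to be among the largest falls. Changes of the members are therefore given below as descriptions, with the standard error and the 95% interval of the fit. Where a member is said to be called, this states only on which side of the threshold used for all genes it lay, and is not a test of the member. Of the 10 genes, 9 had a probe set naming that gene alone, out of 19777 genes in all, and together they had 21 such probe sets out of 54613. The SYVN1 probe set also names a microRNA gene, so SYVN1 has no value here.

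The measurements came from 6 one-colour arrays of mRNA from MDA-MB-231, a mesenchymal-like human breast cancer cell line. In 3 samples the cells had been transfected with a non-targeting control siRNA and in the other 3, called the knockdown below, with an siRNA against ING2, which encodes a PHD finger subunit of a SIN3 histone deacetylase complex. A single ING2 siRNA is named, so a change cannot be ascribed to ING2 apart from that siRNA. The labels give the collection of RNA as 4 days after transfection in one field and 3 days in another. Nothing in them states whether replicates are independent cultures, so the errors cover only the spread of these arrays, and that spread may be technical. In bulk RNA, fewer cells that express a gene and less RNA per cell cannot be told apart.

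In ERAD, slow trimming of mannose marks a glycoprotein that fails to fold. MAN1B1 and the EDEM proteins remove the mannose residues, OS9 reads the trimmed glycan, and SEL1L hands the substrate to the ligase SYVN1 (HRD1). Derlins and HERPUD1 are part of the membrane complex through which substrates leave the ER for the proteasome. Many of these genes are induced by the unfolded protein response, in which ATF6 and spliced XBP1 bind ER stress response elements in promoters.

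ING2 itself read 1399.7, 1349 and 1324 intensity units under control siRNA and 163, 188 and 161 units in the knockdown, 12.5% of control. Median intensity was 75.6 to 77.1 units in controls and 78.3 to 81.4 units in the knockdown, without overlap. The log2 values were less spread after ING2 siRNA (interquartile range 3.11 to 3.27) than in controls (3.33 to 3.38), again without overlap. The cause of these differences was not tested, and values under other scalings are given below. Markers of the line were bright (VIM, CD44, CAV1 and AXL at or above percentile 96.2 of genes). Of 4 genes listed as low in the line, ESR1 lay at percentile 40.9, PGR at 5.50, CDH1 at 24.3 and EPCAM at 82.7. The summed level of these last 4 was 10.54 to 10.88 log2 units in controls and 9.81 to 10.06 after ING2 siRNA, without overlap. This sum was mostly EPCAM (1527 units in controls, beside 104 for ESR1, 54.6 for CDH1 and 11.1 for PGR). EPCAM was called lower (-0.95), and ESR1 (0.08), PGR (0.38) and CDH1 (-0.23) were not called. Of 4 fibroblast markers, DCN was called higher and LUM lower, and of 4 blood cell markers LYZ was called lower. The summed fibroblast markers lay at 9.46 to 9.67 log2 units in controls and 9.54 to 9.60 after ING2 siRNA, and the blood cell markers at 8.98 to 9.16 and 8.95 to 9.06. By percentile of intensity, the blood cell markers lay at 8.53 (PTPRC), 19.9 (LYZ), 45.0 (CD3E) and 61.8 (CD14). The fibroblast markers lay at 37.2 (DCN), 45.3 (PDGFRB), 45.4 (LUM) and 64.4 (COL1A1). The part of these markers in the results was not tested. As a check of RNA integrity, the 3' GAPDH probe set exceeded the 5' one by 0.19 to 0.22 log2 units in controls and by 0.27 to 0.35 in the knockdown. These ranges did not overlap, while the same difference for ACTB, 0.37 to 0.58 in controls and 0.48 to 0.65 in the knockdown, did. The part of RNA integrity in the results was not tested.

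A gene was called when limma's Benjamini-Hochberg adjusted p over all genes was under 0.05. By this rule 1 of the 9 measured members was called lower (EDEM3), where 4.67% of all genes were, and 1 was called higher (OS9), where 3.62% of all genes were. The groups did not overlap, with all ING2 siRNA arrays below all controls, for EDEM3, SEL1L and DERL2, that is 3 members where 13.8% of all genes had this pattern. All ING2 siRNA arrays lay above all controls for OS9 alone, where 22.8% of all genes did. The 2 called genes therefore moved in opposite directions. The median log2 change over the 9 members was -0.08, beside 0.06 over all genes. Since the members were chosen with this contrast known, nothing is read from these shares.

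**Figure D1:**
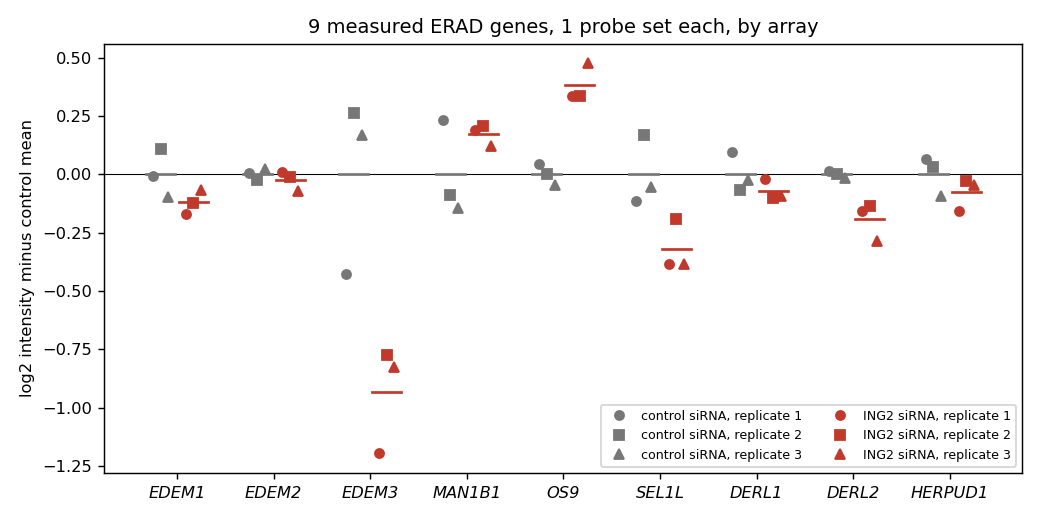
Log2 intensity of 9 ERAD genes on each array minus the gene's control mean, with 1 probe set per gene. Grey symbols are control siRNA and red symbols ING2 siRNA, symbol shapes are replicate numbers and bars are group means. EDEM3 lies lowest after ING2 siRNA (mean -0.93) and OS9 highest (0.38), and control replicate 1 of EDEM3 sits 0.43 below its group's mean.

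The mannose-trimming enzymes come first in the route. EDEM3, which cuts mannose from misfolded glycoproteins, had the largest log2 change of all members. Its brightest probe set, 220926_s_at, read 204, 329 and 308 units in control replicates 1, 2 and 3 and 119.8, 160.5 and 155 units in the knockdown. All 3 ING2 siRNA arrays were below all controls, and control replicate 1 was the control nearest to them. The geometric mean went from 274 to 144 units, 52.4% of control, a log2 change of -0.93 (SE 0.18, 3 arrays in each group, 95% interval -1.32 to -0.54). It ranked 12 of 19777 genes counted from the largest fall.

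The other EDEM3 probe sets gave the same direction. Probe set 223243_s_at read 279.96, 276 and 217 units in controls and 114, 132 and 129 units in the knockdown, a log2 change of -1.04 (SE 0.12, 48.7% of control). Probe set 220342_x_at, of a kind that may also bind related sequences, read 88.8, 60.5 and 81.9 units in controls and 47.6, 44.2 and 57.0 units in the knockdown, a log2 change of -0.63 (SE 0.15). The groups did not overlap at any of the 3 probe sets. The lowest control was a different array at each: replicate 1 at the first, replicate 3 at the second and replicate 2 at the third.

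The other EDEM family genes had 1 probe set each. EDEM1, which promotes the removal of misfolded glycoproteins, read 1446, 1566 and 1357 units in controls and 1293, 1334 and 1388 units in the knockdown. These ranges overlapped, and the log2 change was -0.12 (95% interval -0.31 to 0.07). EDEM2, which is needed for the first mannose cut, read 559.6, 548 and 567 units in controls and 562, 555 and 532 units in the knockdown. Its arrays were interleaved, with a log2 change of -0.02 (95% interval -0.19 to 0.15). These intervals are not set against that of EDEM3, because EDEM3 was known to differ when the list was made. The difference between the family members was not tested.

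MAN1B1, an alpha-mannosidase that removes mannose from the middle branch of the glycan, read 1114, 891 and 856 units in controls and 1082, 1094 and 1030.1 units in the knockdown. Control replicate 1 was above all ING2 siRNA arrays and the other two controls were below them. The log2 change was 0.17 (95% interval -0.06 to 0.41), and a further probe set, 65884_at, gave 0.09 (95% interval -0.11 to 0.29). The mannose-trimming members thus held 1 gene called lower, EDEM3, and 3 not called.

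Related mannosidases of the Golgi, from the same enzyme family as the EDEM proteins, were not called. MAN1A1 had a log2 change of -0.01 (SE 0.13), MAN1A2 of 0.14 (SE 0.11) and MAN1C1 of 0.38 (SE 0.11, limma adjusted p = 0.0624). MAN1C1 was dim, at 38.5 to 48.2 units in controls and 53.3 to 65.6 units in the knockdown, with no overlap.

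**Figure D2:**
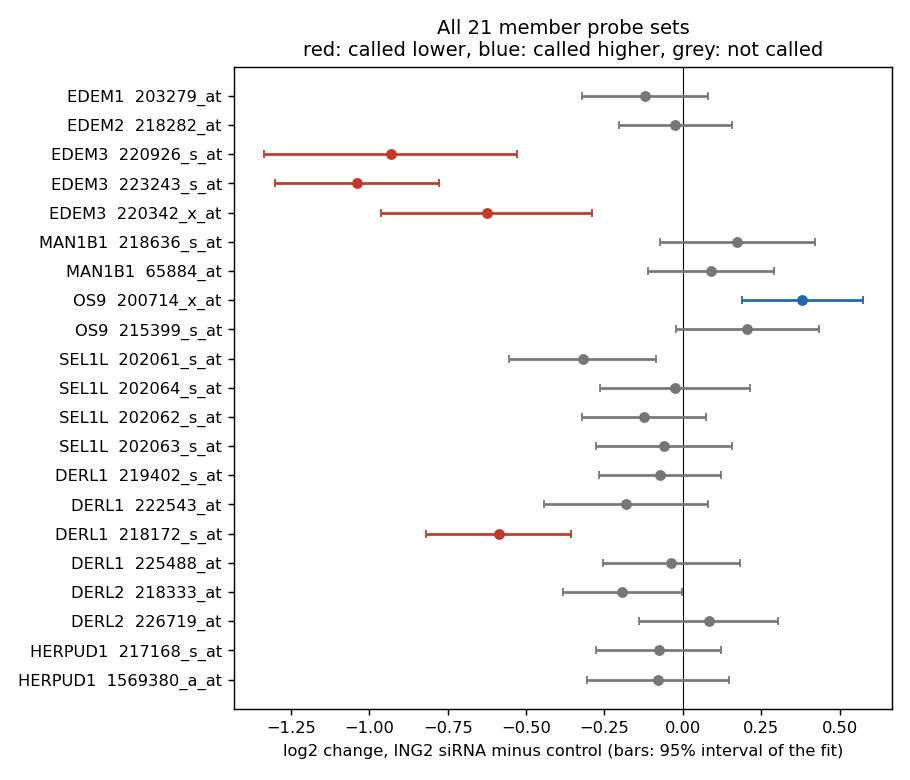
Log2 change (ING2 siRNA minus control) of all 21 member probe sets, ordered by gene, with the 95% interval of the fit. Red marks probe sets called lower, blue called higher and grey not called. The 3 EDEM3 probe sets lie between -1.04 and -0.63, and 1 of the 4 DERL1 probe sets lies at -0.59, with the others between -0.18 and -0.04.

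OS9, the lectin that binds trimmed glycans and brings them to SEL1L, was higher. Its brightest probe set, 200714_x_at, also of the kind that may bind related sequences, read 1526, 1483 and 1437 units in controls and 1869, 1867 and 2059 units in the knockdown. The groups stood apart, with a spread of 0.04 log2 units (SD) in controls and 0.08 after ING2 siRNA. The level after ING2 siRNA was 130.2% of control, a log2 change of 0.38 (SE 0.08, 95% interval 0.20 to 0.56). Its other probe set, 215399_s_at, read 700.2, 749.8 and 645 units in controls and 762, 758 and 900.2 units in the knockdown. There too the groups did not overlap, but the lowest ING2 siRNA array was close to the highest control, and the log2 change of 0.21 (95% interval -0.02 to 0.44) was not called.

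SEL1L, the adaptor of the ligase complex, read 1564, 1904 and 1628 units in controls at its brightest probe set, 202061_s_at, and 1296, 1482 and 1298 units in the knockdown. The groups did not overlap. The log2 change was -0.32 (SE 0.10, 95% interval -0.54 to -0.10), which was not called. The 3 other SEL1L probe sets had log2 changes of -0.12, -0.06 and -0.02 with overlapping groups.

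Derlins span the ER membrane at the exit of the route. DERL2 read 2829.9, 2802 and 2767 units in controls and 2509.5, 2551 and 2294 units in the knockdown, with no overlap and a log2 change of -0.19 (95% interval -0.37 to -0.01) that was not called. Its second probe set, 226719_at, gave 0.08, of the other sign. For DERL1, the probe set with the highest mean, 219402_s_at, read 2667, 2379 and 2452 units in controls and 2458, 2326 and 2340.5 units in the knockdown. These overlapped, with a log2 change of -0.07 (95% interval -0.25 to 0.11).

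The 4 DERL1 probe sets disagreed in size. Probe set 218172_s_at read 498, 581 and 638 units in controls and 378, 378 and 381 units in the knockdown, 66.6% of control, a log2 change of -0.59 (SE 0.10). It was called lower in the fit over probe sets. The other 2, 222543_at and 225488_at, gave -0.18 (SE 0.12) and -0.04 (SE 0.10) with overlapping groups. The span from the lowest to the highest DERL1 probe set was 0.55, beside 0.41 for EDEM3, 0.30 for SEL1L and 0.17 for OS9. Which DERL1 transcripts each probe set reads was not analysed here.

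Of the 21 member probe sets, 4 were called lower (3 of EDEM3 and 1 of DERL1), where 3.64% of all probe sets were, and 1 was called higher (OS9), where 1.64% were. All ING2 siRNA arrays were below all controls at 6 member probe sets, beside 12.3% of all probe sets, and above them at 2, beside 20.5%. Both of the latter were OS9 probe sets.

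HERPUD1 is a scaffold of the ligase complex and among the ER stress-induced genes of the set. It read 2441, 2384 and 2188 units in controls and 2092, 2288 and 2264 units in the knockdown. The arrays overlapped, and the log2 change was -0.08 (95% interval -0.26 to 0.11). Its second probe set gave -0.08 as well (95% interval -0.31 to 0.15).

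Promoter sequences from RefSeq (GRCh38.p14, 250 bases before to 50 after the start site) were found for 9 of the 10 members, all but DERL1. They were searched on both strands for the ER stress response element ERSE (CCAAT, 9 bases, CCACG), for ERSE-II (ATTGG, 1 base, CCACG), for TGACGTG, the core of the unfolded protein response element, and for CCAAT and CCACG alone. ERSE and ERSE-II contain the last 2, since ATTGG is CCAAT on the other strand. ERSE-II was found in HERPUD1 and in 0.0541% of 35116 promoters. No member matched ERSE (0.0769% of promoters) or TGACGTG (1.97%). HERPUD1 and the ER chaperone gene HSPA5, which does hold ERSE, are shown for the exact elements of the pathway, and EDEM3 as the member with the largest change. Capitals mark ERSE-II in HERPUD1 (+ strand, chr16:56932005-56932055), ERSE in HSPA5 (- strand, chr9:125241371-125241429), and CCAAT or CCACG on either strand in EDEM3 (- strand, chr1:184754859-184755108).

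HERPUD1: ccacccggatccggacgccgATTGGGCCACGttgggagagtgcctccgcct

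HSPA5: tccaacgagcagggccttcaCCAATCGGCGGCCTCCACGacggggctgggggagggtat

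EDEM3: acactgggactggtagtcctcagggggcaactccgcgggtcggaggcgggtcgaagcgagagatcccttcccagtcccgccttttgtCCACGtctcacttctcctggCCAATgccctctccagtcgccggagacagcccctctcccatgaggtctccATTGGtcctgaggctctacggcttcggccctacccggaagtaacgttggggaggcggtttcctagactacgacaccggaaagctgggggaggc

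EDEM3 held 1 CCACG and 2 CCAAT, which were not spaced as in ERSE or ERSE-II. CCAAT occurred in 6 of 9 member promoters and in 34.6% of all promoters, and CCACG in 7 of 9 and in 38.1%. A match is only a match of letters in this window. Neither HERPUD1 nor HSPA5, the genes shown with an exact element, was called. Which genes outside the members and HSPA5 hold these elements was not looked up. HERPUD1 had the values given above. HSPA5 read 11316, 11141 and 11128 units in controls and 9887, 10603 and 10568 units in the knockdown. These did not overlap, and the log2 change was -0.11 (SE 0.08, limma adjusted p = 0.317).

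**Figure D3:**
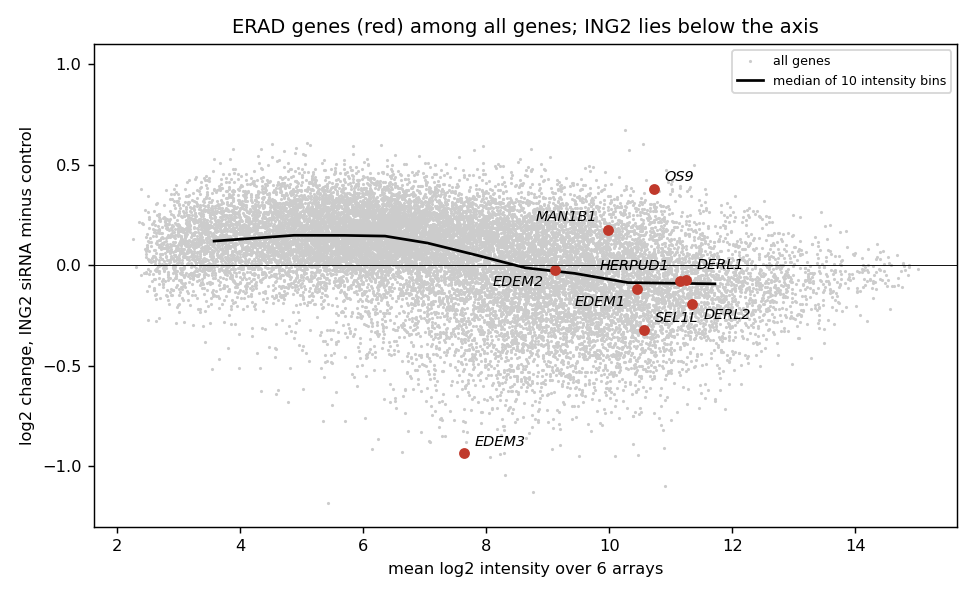
Log2 change (ING2 siRNA minus control) against mean log2 intensity over the 6 arrays, with 1 probe set per gene. Grey points are all genes, the black line joins the medians of 10 equal intensity bins and red points are the 9 members. The line drops from 0.15 for dim genes to -0.09 for the brightest, and EDEM3 and OS9 lie farthest from it among the members.

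Across all genes the change moved with intensity. Median log2 changes were 0.05 in the intensity bin of EDEM3 (the sixth of 10) and -0.09 in that of OS9, EDEM1, MAN1B1 and SEL1L (the ninth). EDEM2, DERL1 and HERPUD1 had changes close to the medians of their bins, which were -0.04, -0.09 and -0.09. The sign of small changes depended on the scaling for some of the settings tried. Of the 9 members, 7 had a value below 0 in the deposited values and after median centring, 3 after quantile normalization and 4 after cyclic loess. After quantile normalization EDEM1 (0.00095), EDEM2 (0.08), DERL1 (0.06) and HERPUD1 (0.06) were above 0. Among all genes, 924 were called lower and 716 higher in the deposited values, and 1450 and 260 after median centring. Quantile normalization gave 623 and 944, and cyclic loess 686 and 447.

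EDEM3 was called lower and OS9 higher under each of the 3 rescalings tried, with log2 changes of -1.004 to -0.91 for EDEM3 and 0.31 to 0.51 for OS9. The calls at 1 probe set per gene depended on which arrays were included. When control array 2 or 3 or knockdown array 1 or 3 was left out, neither EDEM3 nor OS9 nor any other member was past limma's threshold, and at most 3 genes were called in the whole table. EDEM3 then lay between -0.99 and -0.80 and OS9 between 0.33 and 0.40. Without control array 1 or knockdown array 2, SEL1L was called lower as well, with log2 changes of -0.38 in both, where 8.25% and 6.83% of all genes were called lower. In the fit over probe sets, EDEM3 probe set 223243_s_at was called lower in all 6 fits that left out 1 array, between -1.16 and -0.97.

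**Figure D4:**
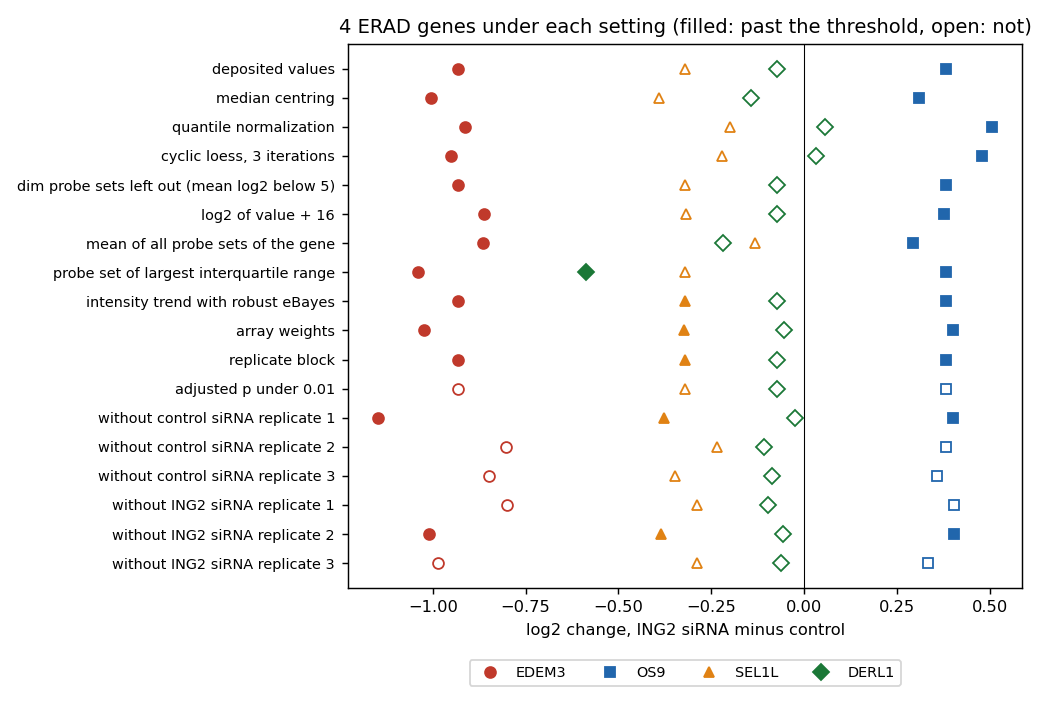
Log2 change of EDEM3, OS9, SEL1L and DERL1 under the deposited values and 17 other settings. Filled symbols passed the threshold and open symbols did not. EDEM3 stayed between -1.15 and -0.80 and OS9 between 0.29 and 0.51, SEL1L passed in 5 settings, and DERL1 passed in 1, where another of its probe sets stood for the gene.

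The rest of the ER quality control system was described by 4 lists that hold none of the members. Of 97 measured genes out of 101 listed, 1 rose and 5 fell, beside 3.62% and 4.67% of all genes. Many of the listed genes were bright, and bright genes were called lower more often. In intensity bins 8, 9 and 10 of 10, 8.95%, 11.3% and 7.79% of genes were called lower and 2.28%, 1.21% and 0.56% higher. Nothing is therefore read from the larger number of falls. The list counts turned with the scaling, as did those over all genes given above. After median centring 0 rose and 10 fell, after quantile normalization 11 rose and 2 fell, and after cyclic loess 5 rose and 2 fell. When control array 2 or 3 or knockdown array 1 or 3 was left out, limma called none, with 21 to 32 at an unadjusted p under 0.05. All calls at 1 probe set per gene named below were lost in those 4 fits. Without control array 1, 4 rose and 11 fell, beside 982 and 1631 of all genes. The share of all genes at an unadjusted p under 0.05 was not computed, so nothing is read from such counts here or below.

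In ERAD machinery outside the members, 0 of 46 measured genes rose and 4 fell by limma, beside 3.62% and 4.67% of all genes. The larger shares of falls among bright genes, given above, apply to this list too. At an unadjusted p under 0.05 the counts were 2 and 15, with no share over all genes to set beside them. The median of -0.07 moved to 0.05 after quantile normalization and 0.02 after cyclic loess. INSIG1, which anchors the sterol sensor SCAP in the ER and takes part in sterol-dependent degradation, read 3973, 4267 and 4468 units in controls and 2429, 2909.5 and 2693 units in the knockdown. The groups stood well apart, and it fell by 0.66 (SE 0.09, limma adjusted p = 0.0167), with 2 of its 3 probe sets called lower. INSIG2, its close relative, fell by 0.39 (SE 0.10, limma adjusted p = 0.0422). UBXN4, which draws the extraction ATPase VCP to the ER, fell by 0.43 (SE 0.12, limma adjusted p = 0.0491). The proteasome shuttle RAD23B likewise fell, by 0.36 (SE 0.09, limma adjusted p = 0.0452). INSIG2, UBXN4 and RAD23B did not pass after quantile normalization (limma adjusted p = 0.0940, 0.0894 and 0.125) or cyclic loess (0.0728, 0.0818 and 0.103). With the mean of all probe sets, UBXN4 was at -0.28 and RAD23B at -0.16, and neither passed (limma adjusted p = 0.0747 and 0.199). RAD23B also did not pass with its most variable probe set (-0.28, limma adjusted p = 0.193). In the fit over probe sets, neither the only INSIG2 probe set (limma adjusted p = 0.0573) nor any of RAD23B was called. For UBXN4, 212008_at was called lower (-0.59, limma adjusted p = 0.0153) and the brightest, 212006_at, was not (limma adjusted p = 0.0660). For UBXN4 and RAD23B, 1 of 4 probe sets each had a value above 0. Those with a value above 0 were dim, at 21.3 units (UBXN4) and 12.6 units (RAD23B) in controls.

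Of 14 genes of N-glycan trimming and the lectin cycle none passed, at a median of 0.14 that stayed above 0 after median centring (0.07), quantile normalization (0.24) and cyclic loess (0.20). After quantile normalization 4 of the 14 passed as higher, where 944 of 19777 genes did. With the most variable probe set of each gene 3 passed as lower, where 1953 of 19777 genes did. At an unadjusted p under 0.05, limma had 5 with a higher and 1 with a lower level. The last was MANEA, a Golgi endomannosidase, which read 187, 292 and 246 units in controls and 143, 191 and 168 units in the knockdown (log2 change -0.51, SE 0.16, limma adjusted p = 0.0651). The smallest p in this list was that of MAN1C1, given above.

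Among 17 sensors and factors of the unfolded protein response, 1 rose and 0 fell by limma, beside 3.62% and 4.67% of all genes. At an unadjusted p under 0.05 the counts were 3 and 4. The list median of 0.03 was -0.04 after median centring, where 0 rose and 1 fell (260 and 1450 of all genes). After quantile normalization 2 rose (944 of all genes). PPP1R15A, which encodes the phosphatase subunit GADD34, read 933, 955 and 842 units in controls and 1134, 1167 and 1307 units in the knockdown and rose by 0.40 (SE 0.09, limma adjusted p = 0.0339), but did not pass after median centring (0.33, limma adjusted p = 0.0518). The sensors ATF6 (-0.22, SE 0.09), EIF2AK3 (-0.30, SE 0.12) and ERN1 (0.11, SE 0.11) did not pass (limma adjusted p = 0.118, 0.109 and 0.499). Of 4 ATF6 probe sets, 231927_at was called lower (-0.62) and 2 had values above 0. XBP1, whose splicing was not analysed here, had a log2 change of -0.33 (SE 0.10, limma adjusted p = 0.0628) with no overlap between the groups. It passed as lower after median centring (-0.40, limma adjusted p = 0.0477), and in 3 of the 10 other settings that kept all arrays.

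In 20 ER chaperones and oxidoreductases 0 rose and 1 fell by limma, beside 3.62% and 4.67% of all genes. At an unadjusted p under 0.05 the counts were 4 and 3. The list median of -0.05 moved to 0.07 after quantile normalization and 0.06 after cyclic loess. HSP90B1, which encodes the chaperone GRP94, read 833, 745 and 681 units in controls and 479.5, 447 and 431 units in the knockdown. It fell by 0.73 (SE 0.10, limma adjusted p = 0.0134), and its other probe set had a value of -1.02 (SE 0.28). Both are of the kind that may bind related sequences, and HSP90B1 has pseudogene copies, so the value cannot be ascribed to HSP90B1 alone.

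**Figure D5:**
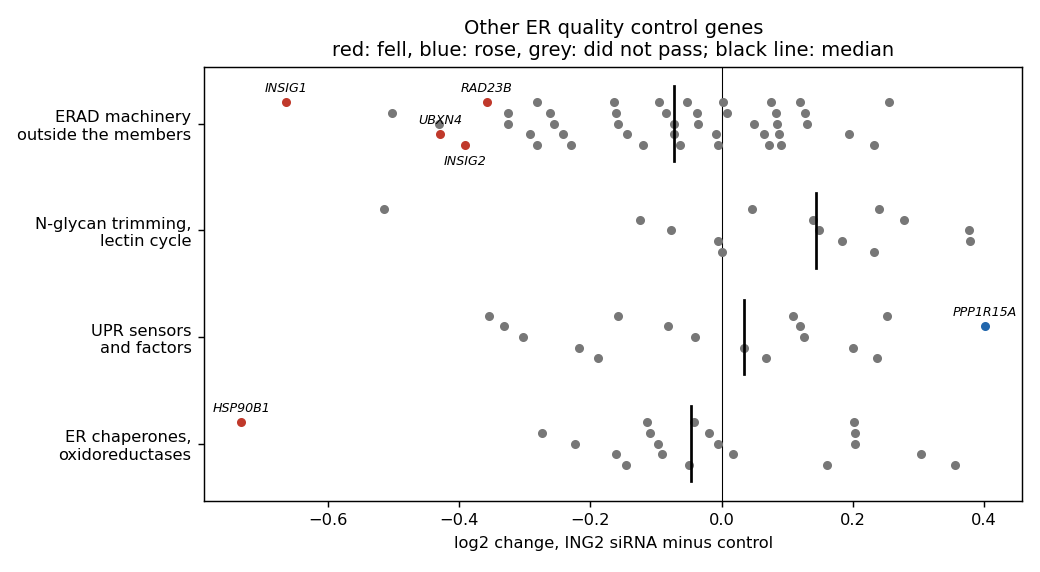
Log2 change (ING2 siRNA minus control) of 97 other ER quality control genes in 4 lists, 1 point per gene, with vertical positions spread for legibility. Red genes fell, blue rose, grey did not pass, and black lines are list medians. Most points lie within 0.4 of 0, and the 6 genes past the threshold are named.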

How the data were processed

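Messenger RNA of 6 samples was measured on 1 one-colour array each. The authors deposited 1 table of linear intensity per probe set. Per the submitters' processing notes, RMA and R 2.12 were used. How the linear values and any filter came about was not given in the sources used here. Deposited intensities were converted to log2 without rescaling. Of 54675 probe sets, 62 controls were left out. Of the 54613 tested, 41091 name 1 gene in the platform annotation and 1801 several. Each of 19777 genes was represented by its probe set of highest mean intensity. Groups of 3 samples were compared with limma 3.58.1 in R 4.3.3 (lmFit, eBayes), with Benjamini-Hochberg adjustment over all genes or all probe sets and a threshold of 0.05. Code was tested on simulated data. The text names all members, ING2, list genes past the threshold (or the 2 with the smallest p), HSPA5, XBP1, ATF6, ERN1, EIF2AK3 and the related mannosidases. The members and gene lists were chosen with earlier results of these data known. Same-numbered samples deviated together with correlations of 0.15, 0.20 and 0.0081. These were not compared with samples of different number. The main fit did not pair the samples, and whether the numbers pair them was not tested. The 6 arrays limit the precision. Alternatives were other scalings, a filter on dim probe sets, an added 16 units, other choices of probe set, other variance models, a replicate block, a threshold of 0.01 and leaving out each array.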

Additional observations from a re-analysis of the deposited data

How the results depend on the processing

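EDEM3 and OS9 kept their direction in all settings tried, and lost the call only at a threshold of 0.01 and in 4 of the 6 fits that left out 1 array. At 1 probe set per gene, 2 members were called lower when the most variable probe set (largest interquartile range) stood for a gene, under the intensity trend and under array weights, where 9.88%, 7.26% and 9.76% of all genes were, and 0 lower and 0 higher at a threshold of 0.01. Leaving out 1 array gave 0 to 2 lower and 0 to 1 higher. Member probe sets called lower numbered 1 to 3 with 1 array left out, and those called higher 0 to 1. The share of all probe sets called in these fits was not computed, so nothing is read from these counts. With the replicate number as a block, 2 members were called lower and 1 higher, where 1878 of all genes (9.50%) were lower and 1630 higher. The block gave 14 lower and 4 higher calls in the wider lists. Whether the numbers pair the samples was not tested. Over all genes, leaving out 1 array gave 2 to 1631 lower and 0 to 1227 higher calls.

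In the wider lists, with 5 lower and 1 higher in the deposited values, the calls were 10 lower and 0 higher after median centring, 2 and 11 after quantile normalization, and 2 and 5 after cyclic loess. Over all genes these 3 scalings gave 1450 and 260, 623 and 944, and 686 and 447. Without dim probe sets 7 were lower and 2 higher, where 1207 and 943 of the 16536 genes kept were. With 16 units added the list counts were 7 and 2, beside 1187 and 856 of all genes. They were 12 and 4 with the mean of all probe sets (1391 and 1229 of all genes), and 20 and 3 for the most variable probe set (1953 and 1307). They were 11 and 6 with the intensity trend (1436 and 971), 16 and 7 with array weights (1931 and 1927), and 0 and 0 at a threshold of 0.01 (2 and 0). Leaving out 1 array gave 0 to 11 lower and 0 to 4 higher, beside 2 to 1631 and 0 to 1227 over all genes. The cause was not tested.

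Values that changed sign, none past the threshold, were EDEM1 (0.00095), EDEM2 (0.083), DERL1 (0.056), HERPUD1 (0.059) and SEL1L probe set 202064_s_at (0.056) after quantile normalization. After cyclic loess they were EDEM2 (0.040), DERL1 (0.031), HERPUD1 (0.025) and HSPA5 (0.0039). For the most variable probe set they were DERL2 (0.082), HSPA5 (0.068) and MAN1A2 (-0.32). With 1 array left out, MAN1A1 ranged from -0.11 to 0.11, SEL1L probe sets 202063_s_at from -0.12 to 0.023 and 202064_s_at from -0.11 to 0.036, and DERL1 probe set 225488_at from -0.084 to 0.040.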
